A study of Mus musculus with 12 samples.

Results

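Neurotrophins and GDNF-family ligands are secreted growth factors that support the survival of neurons, the growth of their processes and the strength of their synapses. The present values cover 8 of these genes, Bdnf, Ntf3, Gdnf, Ntrk2, Ntrk3, Gfra1, Gfra2 and Ret, which were taken by name from a table of 39756 genes. Bdnf encodes brain-derived neurotrophic factor, Ntf3 neurotrophin 3 and Gdnf glial cell line-derived neurotrophic factor. Ntrk2 encodes TrkB, the receptor kinase for brain-derived neurotrophic factor, and Ntrk3 encodes TrkC, the receptor kinase for neurotrophin 3. Gfra1 and Gfra2 encode membrane-anchored co-receptors that bind GDNF and neurturin, respectively, and present them to Ret, a receptor kinase that both ligands use. In the adult brain Bdnf is made mainly by excitatory neurons and its transcription rises with neuronal activity. TrkB is made both as a full-length kinase in neurons and as a truncated form without the kinase, which astrocytes carry.

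The ischemic hemispheres of 12 C57BL/6J mice, 4 in each of 3 groups, were used for RNA sequencing. All mice carried the same genotype and the same batch label, and by the study's methods they were males of 9 to 10 weeks. In Vehicle mice the middle cerebral artery was blocked for 45 min and then reopened (tMCAO, a model of ischemia/reperfusion, I/R), and saline was given. LJP mice underwent the same occlusion and received Laminaria japonica polysaccharide, a sulfated polysaccharide from brown seaweed, given by mouth daily for 14 days before surgery and continued after it. Sham mice underwent the surgery without occlusion and were given saline on the same schedule. The study's text took the middle LJP dose, 200 mg/kg, for its later experiments, but neither the labels nor the methods name the dose of the sequenced mice or the time at which their brains were taken. The study asked what I/R changes in the ischemic hemisphere and what LJP changes after I/R, and the 8 genes are described here for both questions. Total counts lay between 17960353 and 22216315 per mouse, and all 8 genes passed the filter on low counts and were among the 17558 genes tested.

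Each hemisphere is a mixture of cells, so fewer cells of a type and less RNA per cell cannot be told apart. Markers of neurons and of other brain cells were read in every mouse for this reason. The summed level of 14 pan-neuronal markers was 8510 to 9207 CPM (counts per 1e+06 counts of the library) in Sham, 5118 to 7726 CPM in Vehicle and 7402 to 8702 CPM in LJP, and no marker of that list was at 0 in all mice of a group. Of these 14 markers, 7 were lower in Vehicle than in Sham and none was higher. All 8 markers of striatal neurons were lower in Vehicle, with sums of 2989 to 3515 CPM in Sham, 244 to 1231 CPM in Vehicle and 1099 to 2006 CPM in LJP. Vehicle mouse 2 stood apart from the other mice, with the lowest pan-neuronal sum (5118 CPM), the lowest striatal sum (244 CPM), the highest endothelial and mural sum (1533 CPM, against 262.6 to 725 CPM in the other mice) and the highest meningeal fibroblast sum (1028 CPM, against 111.8 to 248 CPM in the other mice). Vehicle mouse 1 had the second lowest pan-neuronal sum, 6544 CPM. The part of these shifts in the results below was not tested, except where a value scaled to neuronal transcripts is given.

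The start regions of 3 ligand genes are shown because Bdnf and Gdnf are read from several start sites, whereas the counts are summed over the whole gene and do not separate them. RefSeq promoter sequences (GRCm38.p6) were found for 5 of the 8 genes and comprised 13 windows, of which 7 belonged to Bdnf. Each window ran from 250 bases before to 50 bases after the start site. The sequences shown are the 250 bases before it, and the capitals mark matches to TGACG, the core of the cAMP response element, to ACGTG, the core of the hypoxia response element, or to CACGTG, the E-box, read on both strands.

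Bdnf, window 3, chr2:109692186-109692435, plus strand: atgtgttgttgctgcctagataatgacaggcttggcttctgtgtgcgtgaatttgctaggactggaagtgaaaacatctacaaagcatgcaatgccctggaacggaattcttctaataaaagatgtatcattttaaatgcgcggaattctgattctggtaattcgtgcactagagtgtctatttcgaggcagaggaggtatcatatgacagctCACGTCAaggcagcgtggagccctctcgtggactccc

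Gdnf, window 1, chr15:7809798-7810047, plus strand: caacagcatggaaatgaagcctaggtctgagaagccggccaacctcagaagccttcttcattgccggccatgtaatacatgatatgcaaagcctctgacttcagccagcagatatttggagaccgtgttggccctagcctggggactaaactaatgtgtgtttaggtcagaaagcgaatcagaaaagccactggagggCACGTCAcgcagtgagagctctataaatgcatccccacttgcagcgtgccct

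Ntf3, window 1, chr6:126166745-126166994, minus strand: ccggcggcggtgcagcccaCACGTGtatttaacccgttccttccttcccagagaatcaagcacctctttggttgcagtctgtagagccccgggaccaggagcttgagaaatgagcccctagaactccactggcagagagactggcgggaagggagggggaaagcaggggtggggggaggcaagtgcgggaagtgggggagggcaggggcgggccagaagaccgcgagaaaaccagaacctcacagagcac

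In the Bdnf window the run CACGTCA holds both an ACGTG match on the opposite strand, starting at base -37, and an overlapping TGACG match, starting at base -35, counted with -1 as the last base before the start. The same run stood in the Gdnf window, where the matches began at bases -52 and -50. In the Ntf3 window the E-box began at base -231 and overlaps an ACGTG match on each strand. TGACG was present in 20.8%, ACGTG in 19.6% and CACGTG in 7.15% of all 32851 RefSeq mouse promoter windows, searched over the whole window. The full cAMP response element TGACGTCA, present in 1.79% of all windows, and the AP-1 sequence TGACTCA, present in 5.20%, were in none of the 13 windows. Besides the windows printed, only window 1 of Bdnf held a match, to ACGTG on the opposite strand, and all remaining windows held none. The matches describe the letters only.

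In GRCm38 coordinates Bdnf lies at chr2:109674700-109727043, Ntf3 at chr6:126101412-126166772 and Gdnf at chr15:7810048-7837580. Of the receptors, Ntrk2 lies at chr13:58806472-59133970, Ntrk3 at chr7:78179986-78581034, Gfra1 at chr19:58235581-58455946, Gfra2 at chr14:70890107-70979840 and Ret at chr6:118151748-118197744. Each value below is for the whole gene as the authors counted it.

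Levels can be set side by side between genes only after division by gene length. On the scale of CPM per kilobase of the deposited gene length, Sham means were highest for Gfra2 (23.3 ± 2.66, SD, n = 4), followed by Ntrk2 (18.9 ± 0.965), Gfra1 (11.3 ± 0.866), Ntrk3 (7.44 ± 0.559) and Bdnf (3.02 ± 0.295). The least abundant were Ret (0.783 ± 0.201), Gdnf (0.476 ± 0.206) and Ntf3 (0.265 ± 0.0705). The Sham mice of Ret and Gdnf overlapped, as did those of Gfra2 and Ntrk2 (19.4 to 25.5 against 17.9 to 20.2 CPM per kilobase). The place of Ntrk2 depended on the length used, because its deposited length of 35504 bases is far above that of its longest annotated transcript (8744 bases). With the latter length Ntrk2 came first, at 76.8 CPM per kilobase in Sham, and Gfra2 second, at 23.4. All receptors but Ret were thus above all 3 ligands in Sham on either length. Gdnf was counted 16 to 70 times per mouse and Ntf3 3 to 19 times.

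**Figure D1:**
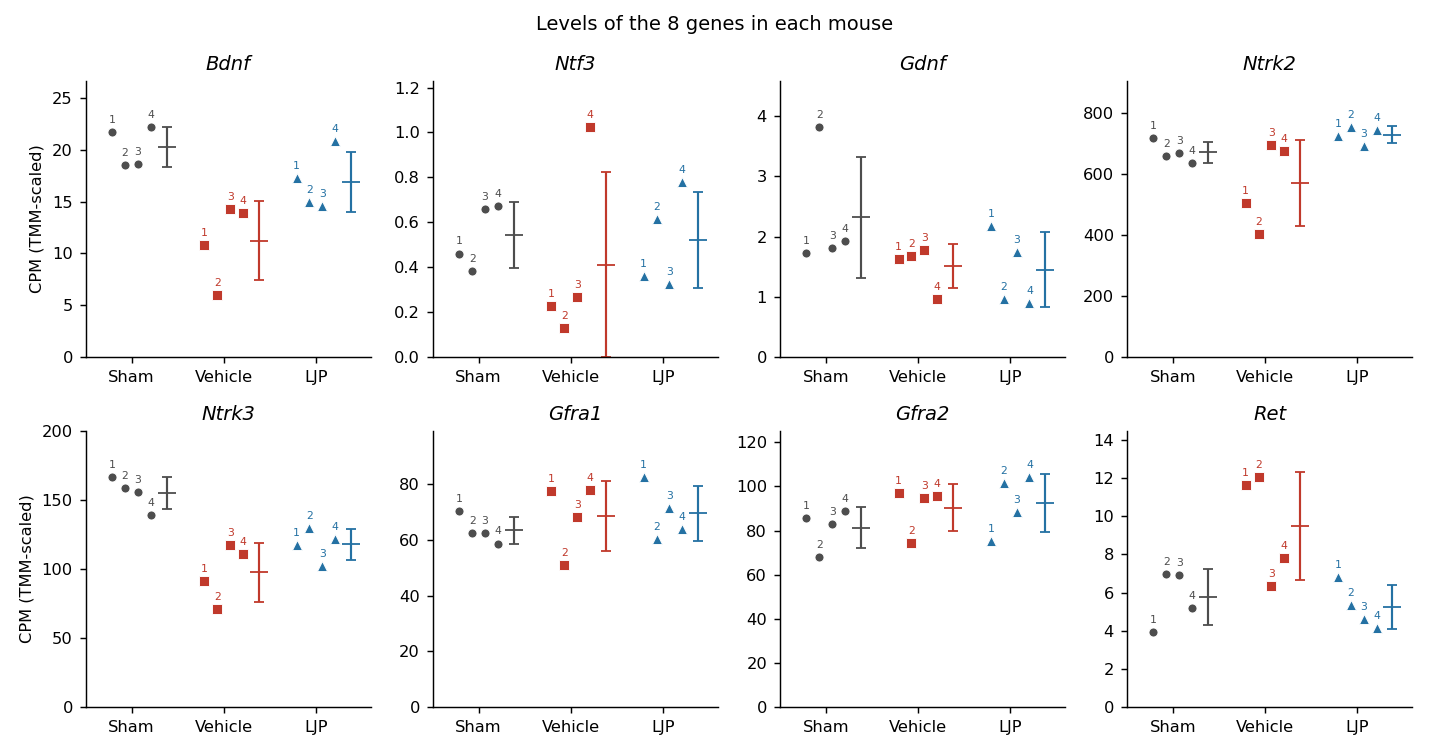
CPM (scaled with TMM factors) of the 8 genes in each of the 12 mice by group, with the mouse number beside each point and the mean ± SD of the 4 mice at the right of each group. Bdnf and Ntrk3 lay lower in all 4 Vehicle mice than in any Sham mouse, and Vehicle mice 1 and 2 had the lowest Bdnf, Ntrk2 and Ntrk3 and the highest Ret.

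In Vehicle mice Bdnf and Ntrk3 were lower and Ret was higher than in Sham, while the other 5 genes did not pass the test. Bdnf fell to 0.55 times and Ntrk3 to 0.63 times the Sham level, and Ret rose to 1.65 times. Thus 3 of 8 genes were called at an adjusted p below 0.05 (edgeR quasi-likelihood test with Benjamini-Hochberg adjustment over all genes tested), beside 39.9% of all genes tested. By direction 1 gene was higher, against 22.7% of all genes, and 2 were lower, against 17.3%. The share of called genes among the 8 was therefore near that of the whole table. Their median log2 fold change was -0.34, whereas that of all genes was at 0.00.

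Bdnf was measured at 21.7, 18.5, 18.6 and 22.2 CPM in Sham mice 1 to 4 (339 to 428 counts). In Vehicle mice 1 to 4 it was 10.8, 5.97, 14.3 and 13.9 CPM (139 to 265 counts). The highest Vehicle mouse was thus below the lowest Sham mouse, and Vehicle mouse 2 was lowest of all. The log2 fold change was -0.86 ± 0.22 (SE, adjusted p = 0.0102), with a 95% interval of the fold of 0.395 to 0.774. Bdnf was called in all 12 fits that left out 1 mouse each, at log2 fold changes of -0.99 to -0.65.

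Ntf3 was near the limit of detection, where 3 counts correspond to 0.129 to 0.173 CPM. It was 0.461, 0.381, 0.658 and 0.674 CPM in the Sham mice and 0.227, 0.129, 0.269 and 1.02 CPM in the Vehicle mice. Vehicle mouse 4 lay above every Sham mouse and the other 3 Vehicle mice below them. The log2 fold change was -0.44 ± 0.56 (adjusted p = 0.556), and the interval of the fold reached from 0.318 to 1.72. Without Vehicle mouse 4 the value was -1.38 and passed the test (adjusted p = 0.0320), so this one mouse decided the call.

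Gdnf was 1.73, 3.81, 1.81 and 1.92 CPM in the Sham mice and 1.63, 1.68, 1.78 and 0.970 CPM in the Vehicle mice. The groups overlapped, and Sham mouse 2 was well above the other Sham mice. The fit gave a log2 fold change of -0.61 ± 0.36 (adjusted p = 0.186), and without Sham mouse 2 it was -0.26. Gdnf thus did not pass the test, with an interval of the fold of 0.384 to 1.12, and the part of depth in this was not tested.

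Of the neurotrophin receptors, Ntrk3 moved with Bdnf and Ntrk2 did not pass the test. Ntrk3 was 166.7, 158.7, 155.9 and 139 CPM in the Sham mice and 90.9, 70.6, 117 and 111 CPM in the Vehicle mice. No Vehicle mouse reached the lowest Sham mouse. The log2 fold change was -0.67 ± 0.14 (adjusted p = 0.00291), with a 95% interval of the fold of 0.511 to 0.772, and the gene was called in all 12 fits without 1 mouse. Bdnf and Ntrk3 were the 2 genes of the 8 without overlap between Vehicle and Sham, where 39.5% of all genes tested had none.

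Ntrk2 was 718, 659, 669 and 637.5 CPM in the Sham mice. In the Vehicle mice it was 505 and 404.5 CPM in mice 1 and 2 but 695.7 and 676 CPM in mice 3 and 4. The Vehicle group thus held a pair of mice below all Sham mice and a pair within the Sham range, and its SD (140 CPM) was larger than that of Sham (34.3 CPM). Its log2 fold change was -0.23 ± 0.14 (adjusted p = 0.203, interval of the fold 0.686 to 1.05). Reads of the full-length and the truncated TrkB cannot be separated in these gene counts.

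The co-receptors Gfra1 and Gfra2 did not pass the test, and their groups overlapped. Gfra1 was 58.7 to 70.2 CPM in Sham and 51.0 to 77.8 CPM in Vehicle, with a fold of 1.08 and an interval of 0.884 to 1.33 (adjusted p = 0.519). Gfra2 was 67.8 to 88.8 CPM in Sham and 74.2 to 96.8 CPM in Vehicle, with a fold of 1.11 and an interval of 0.925 to 1.34 (adjusted p = 0.336).

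Ret was 3.92, 6.97, 6.91 and 5.18 CPM in the Sham mice (68 to 128 counts). In the Vehicle mice it was 11.7, 12.1, 6.35 and 7.81 CPM (118 to 281 counts). Vehicle mice 1 and 2 were well above all Sham mice, whereas Vehicle mouse 3 was within the Sham range, so the groups overlapped. For Ret the log2 fold change was 0.72 ± 0.25 (adjusted p = 0.0366, interval of the fold 1.13 to 2.41). The call was kept in 8 of 12 fits without 1 mouse and was lost without Sham mouse 1 (adjusted p = 0.105), Sham mouse 4 (0.0888), Vehicle mouse 1 (0.0955) or Vehicle mouse 2 (0.0931), and also when only the 2 groups compared entered the fit (0.0629). Ret also missed the thresholds in the study's methods (unadjusted p below 0.01 and a log2 fold change beyond 0.58 in either direction), at an unadjusted p of 0.0132 in edgeR's quasi-likelihood test, whereas Bdnf, Ntrk3 and 21.7% of all genes passed them. The mice with the highest Ret were those with the highest endothelial and mural sums (725 and 1533 CPM in Vehicle mice 1 and 2, against 371 and 417 CPM in Vehicle mice 3 and 4) and the highest infiltrating myeloid sums (199.9 and 192 CPM, against 45.4 and 82.1 CPM). Of the 8 endothelial and mural markers, 5 were higher in Vehicle than in Sham (sums of 274 to 301 CPM in Sham), and of the 8 infiltrating myeloid markers only 2 were tested, both higher (sums of 7.34 to 11.9 CPM in Sham). The part of these cells in the Ret level was not tested.

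**Figure D2:**
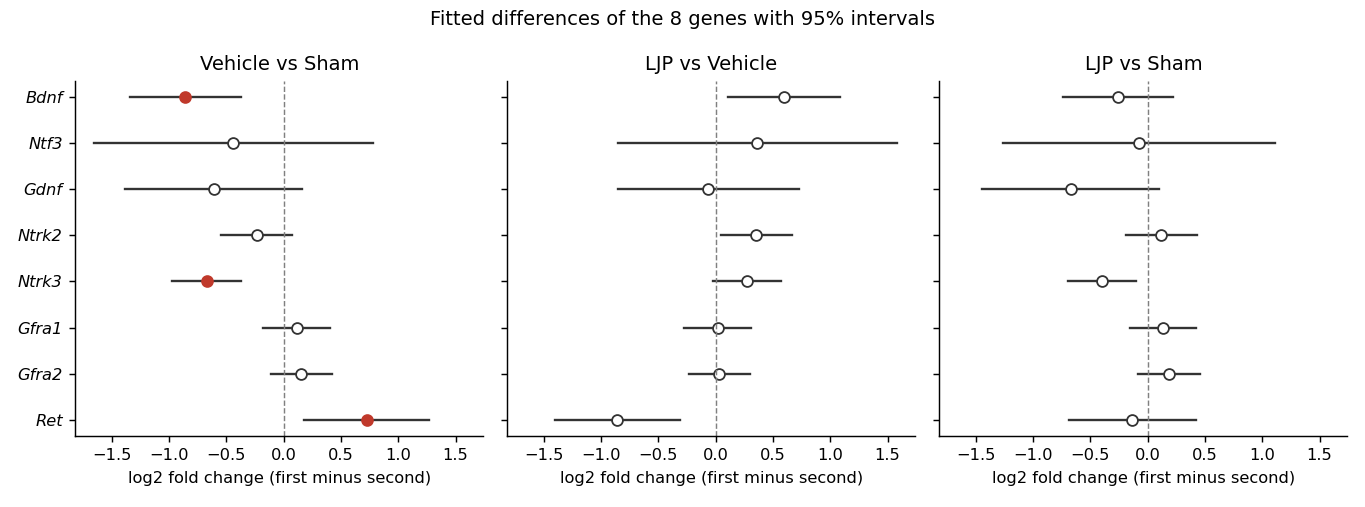
Fitted log2 fold changes of the 8 genes (points) with 95% intervals (lines) in the 3 comparisons, on an axis in log2 units. Filled points passed an adjusted p of 0.05, which 3 genes did in Vehicle vs Sham and none in the other 2 comparisons.

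The genes of the set were also followed relative to neuronal transcripts. Bdnf, Ntrk3 and Ntrk2 were lowest in Vehicle mouse 2 and second lowest in Vehicle mouse 1, which were also the mice with the lowest pan-neuronal sums. When the counts were scaled to the 14 pan-neuronal markers in place of TMM, the median log2 fold change of all genes in Vehicle vs Sham moved to 0.41. Under this scaling Bdnf was still lower, at -0.51 ± 0.16 (adjusted p = 0.0200), and Ntrk3 at -0.30 ± 0.08 (adjusted p = 0.0119). This scaling sets both genes against the mean of the 14 markers, and single markers differed widely. On the TMM scale Nefl (-0.67), Map2 (-0.63) and Syt1 (-0.60) were about as far below Sham as Ntrk3 (-0.67), and the striatal markers lay further below it, at a median log2 fold change of -2.23. Ntrk2 changed sign, to 0.13 ± 0.07, without passing the test (adjusted p = 0.130). Because astrocytes also carry TrkB, this value is not a level of Ntrk2 per neuron. Gfra1 (0.50) and Gfra2 (0.55) passed the test under this scaling but lay close to the median of all genes. Ret was at 1.18 (adjusted p = 0.0113).

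**Figure D3:**
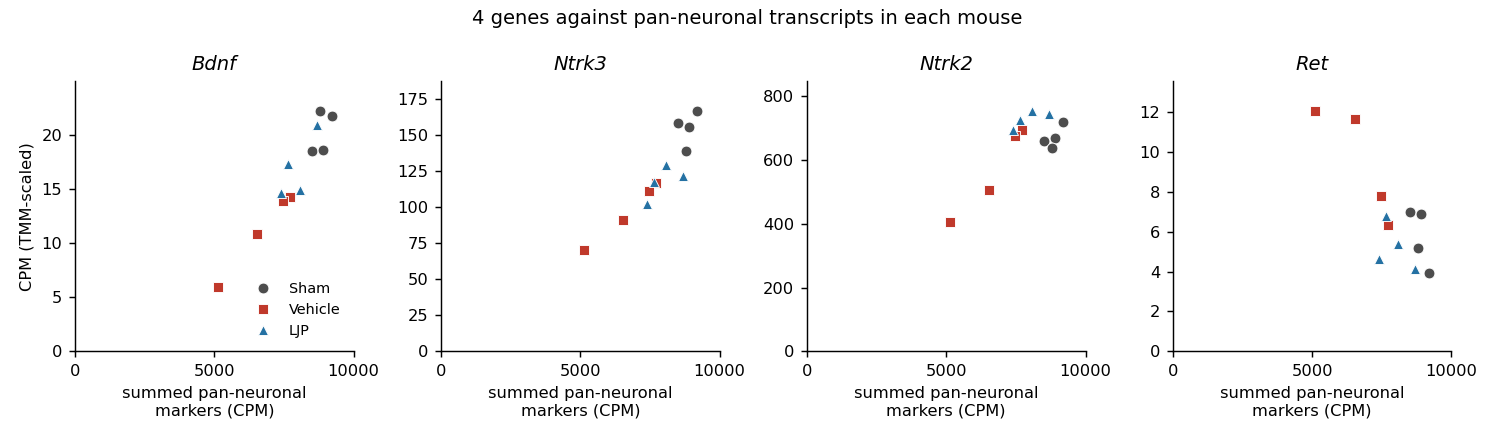
CPM of Bdnf, Ntrk3, Ntrk2 and Ret (vertical axes) against the summed CPM of 14 pan-neuronal markers (horizontal axes), with 1 point per mouse and the groups by colour and shape. The 2 Vehicle mice with the lowest pan-neuronal sums, 5118 and 6544 CPM, had the lowest Bdnf, Ntrk3 and Ntrk2 and the highest Ret.

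**Figure D4:**
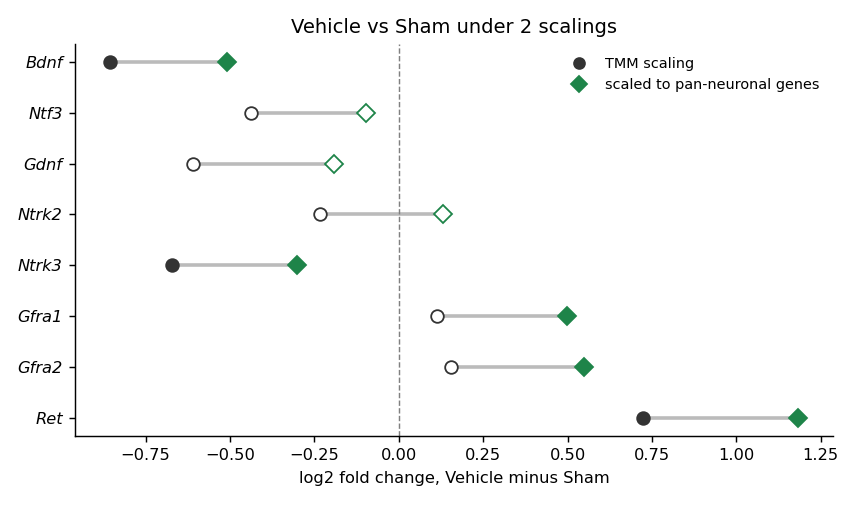
Log2 fold changes of the 8 genes in Vehicle vs Sham with TMM scaling (circles) and with scaling to pan-neuronal genes (diamonds), filled where the adjusted p was below 0.05. Bdnf and Ntrk3 stayed below 0 and filled under both scalings, at -0.51 and -0.30 with neuronal scaling, whereas Ntrk2 moved from -0.23 to 0.13 and the median of all genes moved to 0.41.

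LJP was compared with Vehicle to ask what the treatment changed after I/R. None of the 8 genes was called by edgeR at an adjusted p below 0.05, in a comparison in which 0.0228% of all genes tested (4 genes) were called. At an unadjusted p below 0.05 there were 3 genes, Bdnf, Ntrk2 and Ret, and 5212 of the 17558 genes tested. DESeq2 called 1 of the 8, Ret, and 12.6% of the 18103 genes it tested. The study's thresholds also took Ret alone of the 8, and 6.97% of all genes. The median log2 fold change of the 8 genes was 0.15, that of all genes 0.00.

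Bdnf was 17.3, 14.9, 14.6 and 20.9 CPM in LJP mice 1 to 4, against 5.97 to 14.3 CPM in Vehicle. All 4 LJP mice were above all 4 Vehicle mice, the lowest LJP mouse by a small margin. Bdnf was the only gene of the 8 without overlap in this comparison, where 11.7% of all genes tested had none. The mean was 1.51 times that of Vehicle, with an interval of 1.08 to 2.12, and the log2 fold change was 0.60 ± 0.22 (unadjusted p = 0.0202, adjusted p = 0.113). It passed the test without Vehicle mouse 3 (adjusted p = 0.0442), in a fit that called 21.6% of all genes, and moved to 0.38 without Vehicle mouse 2.

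Ntrk2 was 725, 754, 693 and 745 CPM in the LJP mice, a narrow range that overlapped Vehicle mouse 3 at 695.7 CPM. The fitted log2 fold change was 0.35 ± 0.14 (unadjusted p = 0.0277, adjusted p = 0.129), with an interval of the fold of 1.03 to 1.58. Without Vehicle mouse 3 it passed the test (adjusted p = 0.0382), in the fit that called 21.6% of all genes, and without Vehicle mouse 2 it was 0.22. Ntrk3 was 117, 129, 102 and 122 CPM in the LJP mice and overlapped Vehicle, at a log2 fold change of 0.27 ± 0.14 (adjusted p = 0.198). Without Vehicle mouse 2 the Ntrk3 value was 0.15. Scaled to pan-neuronal genes, under which the median of all genes was -0.26 in LJP vs Vehicle, Bdnf was at 0.40 (adjusted p = 0.109), Ntrk2 at 0.14 and Ntrk3 at 0.05.

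Ret was 6.81, 5.37, 4.62 and 4.13 CPM in the LJP mice (74 to 150 counts). Only LJP mouse 1 reached into the Vehicle range, above Vehicle mouse 3 at 6.35 CPM. The mean was 0.55 times that of Vehicle, with an interval of 0.379 to 0.806, and the log2 fold change was -0.86 ± 0.25 (unadjusted p = 0.00490, adjusted p = 0.0720 by edgeR and 0.0186 by DESeq2). It passed the edgeR test without Vehicle mouse 3 (adjusted p = 0.0191) or Vehicle mouse 4 (adjusted p = 0.0465). Those fits called 21.6% and 11.7% of all genes, against 0.0228% with all mice. Endothelial and mural sums were 263 to 348 CPM in LJP and 371 to 1533 CPM in Vehicle, and their part in the Ret difference was not tested.

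The remaining 4 genes overlapped between LJP and Vehicle and did not pass the test. The fold was 1.01 for Gfra1, with an interval of 0.829 to 1.24 (adjusted p = 0.931), and 1.02 for Gfra2, with an interval of 0.850 to 1.23 (adjusted p = 0.875). Gdnf was 0.892 to 2.18 CPM in LJP, at a fold of 0.958 with a wide interval of 0.556 to 1.65, and Ntf3 was 0.326 to 0.780 CPM, at a fold of 1.29 with an interval of 0.554 to 2.99. The log2 fold change of Ntf3, 0.37, moved to 1.31 without Vehicle mouse 4 and to 0.05 without Vehicle mouse 2. For the co-receptors the interval is narrow, whereas for both low ligands a change of 1.5 times in either direction lies inside it.

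LJP vs Sham shares its LJP mice with the previous comparison and its Sham mice with the first. None of the 8 genes was called by edgeR or DESeq2, where edgeR called 4.75% of all genes tested. At an unadjusted p below 0.05 there was 1 gene of the 8, Ntrk3, and 3309 of all genes. Ntrk3 in LJP (102 to 129 CPM) was below every Sham mouse (139 to 167 CPM), at a log2 fold change of -0.40 ± 0.14 (unadjusted p = 0.0125, adjusted p = 0.130). It was the only gene of the 8 whose groups did not overlap, against 24.9% of all genes. It passed the test in the fit of these 2 groups alone (adjusted p = 0.00146) and without Vehicle mouse 2 (adjusted p = 0.0118). Those fits called 23.8% and 13.3% of all genes, against 4.75% in the main fit. Bdnf in LJP was 0.83 times the Sham level (interval 0.599 to 1.16, adjusted p = 0.58), Ntrk2 1.09 times (0.877 to 1.35) and Ret 0.91 times (0.623 to 1.34). Gdnf was 0.63 times (0.367 to 1.07), Ntf3 0.95 times (0.418 to 2.17), Gfra1 1.10 times (0.897 to 1.34) and Gfra2 1.14 times (0.945 to 1.37). These 7 intervals all include 1. The log2 fold change of Gdnf, -0.67, moved to -0.32 without Sham mouse 2 and to -0.95 without LJP mouse 1.

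The other genes of both pathways were read from a list of 70 genes, of which 66 were tested. In Vehicle vs Sham 13 were higher and 16 lower, at a median log2 fold change of -0.08. These were 19.7% and 24.2% of the 66, against 22.7% and 17.3% of all genes tested, so that the shares lay near the background. With library size alone as the scale the split was 17 higher and 13 lower, where 27% of all genes were higher and 13.1% lower. With scaling to pan-neuronal genes it was 30 higher and 5 lower, where 46.3% of all genes were higher and 4.45% lower. That scaling moved the median of all genes to 0.41, which raises the value of each gene. Of the 16 lower genes, 5 stayed lower and called (Sort1, Shc3, Bex1, Egr1 and Homer1), 7 changed sign without passing the test (among them Sorcs1, Dok4, Creb1, Crtc1 and Dusp6), and the others stayed below 0 without passing it.

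Of the other ligands, Nrtn, which encodes neurturin, the ligand of Gfra2, was at 0.82 times the Sham level in Vehicle (adjusted p = 0.239), and Artn, which encodes artemin, at 0.96 times (adjusted p = 0.920). Ntf5 was at 0 to 10 counts and Pspn at 1 to 13 counts per mouse, too few to be tested.

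Of the other receptors, Sort1 and Sorcs1 were lower and Sdc3 was higher in Vehicle. Sort1 encodes sortilin, which binds pro-neurotrophins and sorts Bdnf within the cell. It was 603 to 653 CPM in Sham, 298 to 525 CPM in Vehicle and 543 to 612 CPM in LJP, with Vehicle below all mice of both other groups. On the log2 scale the difference was -0.60 ± 0.16 in Vehicle vs Sham (adjusted p = 0.0104) and 0.43 ± 0.16 in LJP vs Vehicle, which did not pass the test (adjusted p = 0.105). Sorcs1, a relative of sortilin, was at -0.34 ± 0.11 (adjusted p = 0.0213), and it changed sign to 0.07 under neuronal scaling. Sdc3, a proteoglycan of the cell surface that binds GDNF, was 294 to 305 CPM in Sham and 356 to 425 CPM in Vehicle (log2 fold change 0.40 ± 0.10, adjusted p = 0.00721).

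The other receptors named here did not pass the test. Ngfr, which encodes the p75 receptor shared by the neurotrophins, was 4.21 to 11.3 CPM in Sham and 2.28 to 17.0 CPM in Vehicle (adjusted p = 0.284). The log2 fold change was -0.10 for Sorcs2 (adjusted p = 0.465), -0.51 for Sorcs3 (adjusted p = 0.0541), 0.02 for Gfra4 (adjusted p = 0.874) and -0.30 for Ncam1 (adjusted p = 0.0633). Gfra3 and Gfral had at most 2 counts in any mouse and were not tested.

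**Figure D5:**
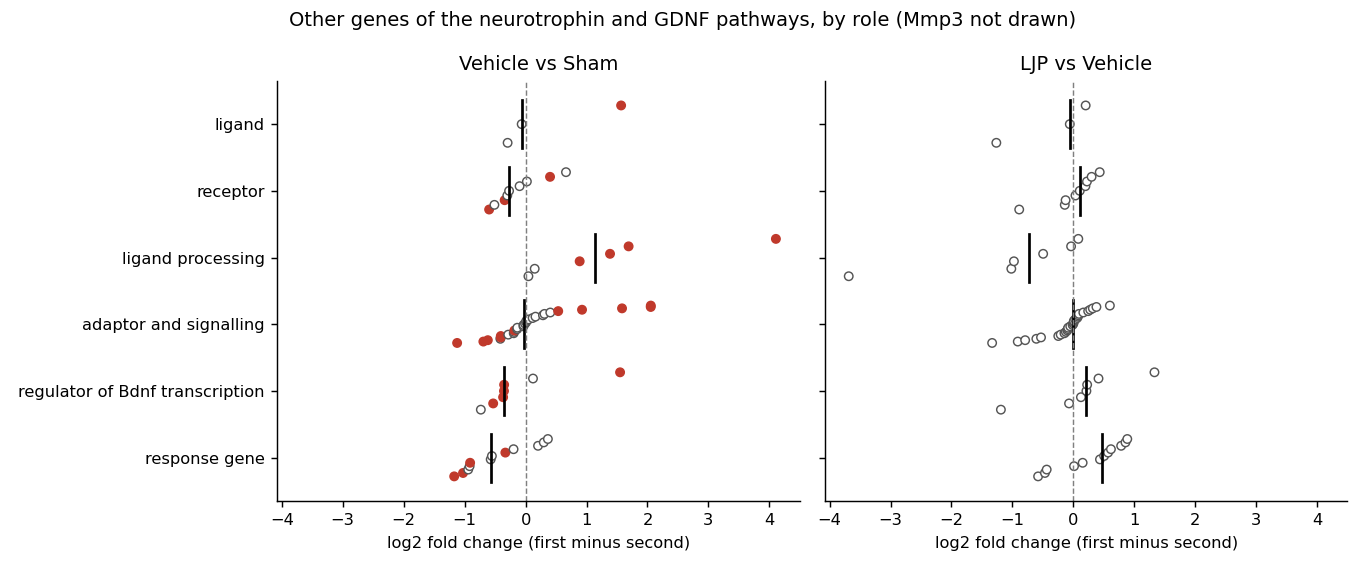
Log2 fold changes of the other pathway genes by role, 1 point per gene, filled where the adjusted p was below 0.05, with a vertical bar at the median of the genes drawn. In Vehicle vs Sham 12 drawn genes were higher, 4 of them in ligand processing, and 16 lower, and in LJP vs Vehicle none passed the test; Mmp3, which had no count in Sham, is not drawn.

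The role with the largest share of its tested genes higher in Vehicle was ligand processing, the proteases that cut pro-neurotrophins or act on their matrix. Of its 7 genes, 5 rose in Vehicle (Furin, Pcsk7, Plat, Mmp3 and Mmp9) and none fell, at a median log2 fold change of 1.39, against 22.7% higher and 17.3% lower over all genes. Mmp9, matrix metalloproteinase 9, was 0.881 to 1.53 CPM in Sham and 42.9, 35.9, 1.40 and 5.77 CPM in Vehicle mice 1 to 4, so that Vehicle mouse 3 stayed within the Sham range (log2 fold change 4.11 ± 0.83, adjusted p = 0.00269). Mmp3 had no count in any Sham mouse and 2.42 to 58.8 CPM in Vehicle, at least 129-fold higher against a floor of 3 counts per Sham library. Vehicle mouse 1 held the highest of these values, and without it the bound was 52.6-fold. Furin, a protease that cleaves pro-neurotrophins, was 47.1 to 53.3 CPM in Sham and 75.1 to 218 CPM in Vehicle (log2 fold change 1.39 ± 0.27, adjusted p = 0.00220). Plat, which encodes tissue plasminogen activator, was 20.3 to 23.6 CPM in Sham and 32.6 to 143 CPM in Vehicle, without overlap. All 5 genes were highest in Vehicle mice 1 and 2, the mice with the highest endothelial and mural and the highest infiltrating myeloid sums. The part of these cells in the levels was not tested.

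Of the 28 adaptors and signalling proteins 5 were higher and 6 lower, at a median of -0.02. These shares, 17.9% and 21.4%, lay near the 22.7% and 17.3% of all genes. The split was 8 higher and 5 lower with library size alone and 17 higher and 2 lower under neuronal scaling. Over all genes 27% were higher and 13.1% lower with library size alone, and 46.3% and 4.45% under neuronal scaling. Among those higher were Shc1, an adaptor of receptor kinases, at 2.06 ± 0.36 (adjusted p = 0.00129), Sh2b2 at 1.58 ± 0.26 and Nradd, a relative of the p75 receptor, at 2.05 ± 0.34. Shc3, a neuronal relative of Shc1, was lower, at 356 to 393.5 CPM in Sham and 66.0 to 265 CPM in Vehicle (log2 fold change -1.12 ± 0.33, adjusted p = 0.0170). Shc3 was chosen as the counterpart of Shc1 after its values were seen. Shc1 and Shc3 thus moved in opposite directions, and both did so under neuronal scaling as well (2.61 and -0.82).

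Regulators of Bdnf transcription comprised 7 genes, among which Rest was higher and Creb1, Crtc1 and Mef2c were lower. By share 14.3% of the 7 were higher and 57.1% lower, against 22.7% and 17.3% of all genes. Under neuronal scaling 2 of the 7 were higher and none was lower, where 46.3% of all genes were higher and 4.45% lower. Rest, a repressor of neuronal genes, was 5.54 to 7.36 CPM in Sham and 19.3, 32.4, 12.3 and 12.2 CPM in Vehicle mice 1 to 4 (log2 fold change 1.55 ± 0.29, adjusted p = 0.00184). All 4 Vehicle mice were above all Sham mice, and in LJP, at 6.58 to 10.7 CPM, all mice were below Vehicle, a difference that did not pass the test (-1.19 ± 0.28, adjusted p = 0.0678). Creb1, which binds the cAMP response element, was lower at -0.35 ± 0.09 (adjusted p = 0.0103), but under neuronal scaling it changed sign, to 0.06. Npas4, an activity-dependent factor, was 13.9 to 16.3 CPM in Sham, 4.13, 1.42, 17.4 and 14.7 CPM in Vehicle and 18.6 to 30.6 CPM in LJP, and did not pass the test in either comparison (adjusted p = 0.279 and 0.125).

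Of 12 response genes, whose transcripts rise after receptor activation, 4 were lower in Vehicle and none was higher, at a median of -0.56, against 17.3% lower and 22.7% higher over all genes. Egr1, an immediate early transcription factor, was 328 to 404 CPM in Sham and 126 to 266 CPM in Vehicle (log2 fold change -0.91 ± 0.24, adjusted p = 0.00942). Homer1, a postsynaptic scaffold protein, was 207 to 256 CPM in Sham and 57.1 to 165 CPM in Vehicle (-1.03 ± 0.27, adjusted p = 0.00957). Egr2 and Dusp6 were the other 2 genes called. Under neuronal scaling the split of the 12 was 2 lower (Egr1 and Homer1) and 2 higher (Spry4 at 0.83 and Etv4 at 0.76), with Dusp6 changed in sign. There 4.45% of all genes were lower and 46.3% higher. With library size alone it was 3 lower and 1 higher, where 13.1% of all genes were lower and 27% higher. The lowest Homer1 and Egr1 levels were in Vehicle mice 1 and 2, the mice with the least Bdnf.

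In LJP vs Vehicle none of the 66 pathway genes was called by edgeR, whereas DESeq2 called 10, with 1 higher and 9 lower, and the study's thresholds took 7, all lower. Over all genes DESeq2 called 3.61% higher and 8.99% lower, and the study's thresholds took 5.89% as lower. By role the median log2 fold change ran from -0.98 for ligand processing to 0.47 for response genes. The smallest p-values within the roles belonged to Shc1 (-1.33 ± 0.35, adjusted p = 0.0678) and Sh2b2 (-0.79 ± 0.26, adjusted p = 0.0843), to Mmp9 (-3.69 ± 0.80, adjusted p = 0.0678) and Mmp3 (-4.94 ± 1.17, adjusted p = 0.0678), and to Etv4 (-0.47 ± 0.16, adjusted p = 0.0953) and Spry4 (-0.44 ± 0.15, adjusted p = 0.0956). Of these, Shc1, Sh2b2, Mmp3 and Etv4 did not overlap between the groups. In LJP vs Sham none of the 66 was called by edgeR and 4 were by DESeq2, which called 7.85% of the 18679 genes it tested. Among the smallest p-values by role in that comparison were those of Nradd (1.14, adjusted p = 0.0871), Dok4 (-0.33, adjusted p = 0.101), Mmp3, Plat (0.67, adjusted p = 0.346), Creb1 (-0.13, adjusted p = 0.513), Dusp6 (-0.32, adjusted p = 0.111) and Homer1 (-0.41, adjusted p = 0.445). Mmp3 had 1 to 33 counts in the LJP mice and none in Sham.

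Other genes overlap some of the 8 on the genome, and the use of strand in counting is not given in the sources used here. The largest was Gm53063, a long noncoding gene antisense to Ntrk2, with 1 to 26 counts per mouse against 9414 to 15970 for Ntrk2. The 4 genes that overlap Ntrk3, Gfra1 or Gfra2 had at most 10 counts in any mouse.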

How the data were processed

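Poly(A) RNA from the ischemic hemispheres of 12 mice was sequenced as paired-end reads of 150 bases. Raw counts for each gene and mouse were deposited by the authors in one table, with gene positions and lengths. Per the labels' processing notes, featureCounts and DESeq2 were used and the builds GRCm39 and mm10 are named, and the aligner, versions and strand setting are not given in the sources used here. Of 39754 genes matched to RefSeq GRCm38.p6 by symbol, 39730 had the same position, so that coordinates refer to GRCm38. Mice were grouped by the labels, and 0 count columns were left unmatched.

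Counts were analysed with edgeR 4.0.16 in R 4.3.3. Genes were filtered with filterByExpr (minimum count 10), which left 17558 genes. After TMM scaling, 1 quasi-likelihood fit over all 12 mice took the group as its only term. The Benjamini-Hochberg adjustment ran over all genes tested, and an adjusted p below 0.05 was called. CPM are counts per 1e+06 counts of the TMM-scaled library, and log2 CPM used a prior count of 2. The total per mouse was 17960353 to 22216315 counts, and a floor of 3 counts corresponds to 0.129 to 0.173 CPM. Intervals are 95% intervals of the fit, and the floor covers counting error only. The mice are labelled as separate animals, and no pair agreed within sampling noise. In simulated data for Vehicle vs Sham on 17558 genes the fit recovered 66 of 100 genes changed by a log2 fold change of 1 and 91 of 100 changed by 2. The simulation changed only these genes and gave all groups the same spread, whereas 39.9% of all genes were called in the real comparison. Its recovery therefore need not hold for these mice.

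Alternatives were DESeq2 1.42.0, RLE normalization, library size only, scaling to pan-neuronal genes, no filter, a fit of 2 groups, a replicate block, the thresholds of the study's methods and leaving out each mouse. The 8 genes, the pathway and marker lists and the alternatives were chosen with earlier results of these data known. The genes named are the 8, all listed ligands and receptors, and in each other role and comparison the 2 genes with the smallest p-values. Further named genes with calls are given to account for the counts. Single values of 3 genes of the pathway list are not reported here, though the counts include them. For each of the 8, the 3 genes with the highest Pearson correlation of log2 CPM over the 12 mice are also named. Motifs were searched on both strands in RefSeq windows from 250 bases before to 50 bases after the start. Figures were drawn with matplotlib 3.10.9.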

Additional observations from a re-analysis of the deposited data

Results flagged for a closer look

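In each group of 4 mice the highest and lowest mouse of each of the 8 genes was compared with the rest by its gap to the nearest other mouse over the whole range, against Dixon's critical value of 0.829. This flagged 3 of 24 groups, and chance flags about 1 in 20 groups. Ntf3 was highest in Vehicle mouse 4, with a ratio of 0.843, at 1.02 CPM against 0.129 to 0.269 CPM in the other Vehicle mice (19 counts against 3 to 5). Gdnf was highest in Sham mouse 2, with a ratio of 0.910, at 3.81 CPM against 1.73 to 1.92 CPM in the other Sham mice. Gfra2 was lowest in Vehicle mouse 2, with a ratio of 0.916, at 74.2 CPM against 94.9 to 96.8 CPM in the other Vehicle mice.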

How the results depend on the processing

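Bdnf and Ntrk3 stayed lower and called in Vehicle vs Sham under every alternative run. Over the 8 genes and 3 comparisons, and leaving aside the study's thresholds, 420 of 454 alternative values kept their direction and their side of the threshold, 10 passed it newly, 6 fell short of it and 18 changed sign. Under the study's thresholds 22 of 24 calls were as before, and Ret was lost in Vehicle vs Sham and newly taken in LJP vs Vehicle. Of the 8 genes, scaling to pan-neuronal genes called 5 in Vehicle vs Sham in place of 3, where it called 50.8% of all genes. In LJP vs Vehicle DESeq2 and the study's thresholds each called 1 in place of 0, and in LJP vs Sham the fit of 2 groups called 1. Of the pathway genes, the study's thresholds called 18 in place of 29 in Vehicle vs Sham (21.7% of all genes). For LJP vs Vehicle the count of 0 became 10 with DESeq2 (12.6% of all genes), 5 without a filter (1.96%) and 7 with the study's thresholds (6.97%), and for LJP vs Sham it became 4 with DESeq2 (7.85%), 23 with 2 groups (23.8%) and 1 with the study's thresholds (5.90%). Without 1 mouse each, the counts of the 8 genes ranged from 2 to 4, from 0 to 3 and from 0 to 1 in Vehicle vs Sham, LJP vs Vehicle and LJP vs Sham, and those of pathway genes from 23 to 36, from 0 to 20 (the highest without Vehicle mouse 3) and from 0 to 9 (the highest without Vehicle mouse 2). The share of all genes called without Vehicle mouse 3 was 21.6% in LJP vs Vehicle, and without Vehicle mouse 2 it was 13.3% in LJP vs Sham. The cause of these moves was not tested.

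The replicate block called 2 of the 8 genes in Vehicle vs Sham (Bdnf and Ntrk3, with Ret at an adjusted p of 0.0591) and 0 in both other comparisons, and 29, 0 and 0 pathway genes. The numbers do not pair the mice, since 1 of 12 same-number pairs had a correlation over 0.1 (range -0.32 to 0.11) and 2 of 12 mice correlated best with their own number.

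The changes of sign all concerned values that did not pass the test. With scaling to pan-neuronal genes they were Ntrk2 in Vehicle vs Sham (0.13), Gfra1 (-0.20) and Gfra2 (-0.21) in LJP vs Vehicle, and Ntf3 (0.068) and Ret (0.024) in LJP vs Sham. With library size only, Gfra1 in LJP vs Vehicle was at -0.00030. Without 1 mouse, in LJP vs Vehicle Gdnf ranged from -0.33 to 0.11 (0.03 without Vehicle mouse 3, 0.09 without LJP mouse 2), Gfra1 from -0.10 to 0.087 (-0.07 without LJP mouse 1) and Gfra2 from -0.053 to 0.12 (-0.01 and -0.03 without LJP mouse 2 or 4), and in LJP vs Sham Ntf3 from -0.32 to 0.090 (0.03 and 0.05 without Sham mouse 3 or 4, 0.07 without LJP mouse 1). No gene of the 8 was removed by the filter, so other pseudocounts for such genes were not run. Ntf3 and Gdnf had the fewest counts of the 8.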

Other observations

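The genes whose log2 CPM followed each of the 8 most closely over the 12 mice are given as a description; the mice fall into 3 groups, which these genes share. Bdnf was followed by Josd1 (Pearson r = 0.987), Mdh1 (0.986) and Smarca1 (0.985), and Ntrk3 by Tanc2 (0.990), Lrrc7 (0.989) and Myh10 (0.987). Ntrk2 was followed by Npas4 (0.985), which encodes the activity-dependent factor named above, Mir124a-1hg (0.983) and Nmbr (0.975). Ret was followed by Kcne4 (0.933), Plekhm1 (0.932) and Arpin (0.928). Gfra2 was followed by Vps8 (0.938), 9130024F11Rik (0.908) and Slc17a7 (0.906), which encodes a vesicular glutamate transporter of excitatory neurons. Gfra1 was followed by Slc1a3 (0.849), which encodes an astrocytic glutamate transporter, Nnat (0.817) and Fdxacb1 (0.816). Of the 2 least counted genes, Ntf3 was followed by Gm34006 (0.888), Hunk (0.879) and Sobp (0.876), and Gdnf by E230025N22Rik (0.883), Gid8 (0.838) and Itga9 (0.837).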
